A study of Mus musculus with 18 samples.

Results

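The 7 genes described here, Rgs1, Rgs2, Rgs3, Rgs10, Rgs14, Rgs16 and Rgs19, encode regulators of G protein signalling (RGS proteins). They were taken by symbol out of the 55487 gene IDs of the expression tables, and were chosen with their levels at the 6 sites already known. Their own differences between sites are therefore given as a description, without a test. All 7 passed the filter on low values, which asked for a group mean of 1 TPM or more at any site. TPM is a transcript abundance corrected for length and expressed as a share of the library.

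The libraries hold poly(A) RNA of mouse regulatory T (Treg) cells, the CD4+ Foxp3+ T cells that restrain immune responses. The cells were sorted from wild-type mice that had received no treatment, and were used fresh. The labels set the 6 groups apart only by site, namely lung, liver, bone marrow, lymph node, spleen and peripheral blood. Each group has 3 libraries, 18 in all. The labels give no age, sex, number of animals per library or sort gate, nor whether replicate libraries came from separate animals, so p-values measure only the spread between these libraries, which may be technical.

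G protein-coupled receptors, among them the chemokine receptors that guide T cells, signal when their heterotrimeric G protein exchanges GDP for GTP on its alpha subunit. RGS proteins speed the hydrolysis of that GTP and so shorten the signal. Rgs1 and Rgs16 act on the Gi and Gq classes and dampen chemokine responses of lymphocytes, Rgs2 acts mainly on Gq, and Rgs14 carries a second, GoLoco region that holds Gi alpha in its GDP-bound form.

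Of the members, 3 lie on chromosome 1, where Rgs2 and Rgs1 share a run of family genes. On mouse build GRCm38 (mm10), Rgs2 spans chr1:143999338-144004161 and Rgs1 chr1:144242296-144249242, both on the minus strand. The run Rgs2, Rgs13, Rgs1, Rgs21 and Rgs18 covers 776 kb. Rgs16 stands farther along the same chromosome, at chr1:153740349-153745468 on the plus strand, between Rgs8 and Rgsl1. The other 4 members lie on separate chromosomes, Rgs3 at chr4:62559847-62704001, Rgs10 at chr7:128373621-128418758, Rgs14 at chr13:55369732-55384687 and Rgs19 at chr2:181688419-181693977.

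Promoters of Rgs2, Rgs16 and Rgs10 are shown because these members, among those matched, had different orders of the sites. They come from the RefSeq table of build GRCm38.p6, in which 5 of the 7 members were matched, and Rgs1 and Rgs14 were not. Each line gives the 250 bases before the start in that table, 5′ to 3′ on the gene's strand. These starts lie inside the GENCODE loci given above, by 12 bases for Rgs2, 4 for Rgs16 and 586 for Rgs10, whose locus holds a transcript with an earlier start. The Rgs2 stretch is chr1:144004150-144004399 (minus strand), that of Rgs16 is chr1:153740103-153740352 (plus strand) and that of Rgs10 is chr7:128418173-128418422 (minus strand). Capitals mark 3 motifs searched on both strands, the CRE half-site TGACG, the CCAAT box CCAAT and the GC box GGGCGG.
Rgs2: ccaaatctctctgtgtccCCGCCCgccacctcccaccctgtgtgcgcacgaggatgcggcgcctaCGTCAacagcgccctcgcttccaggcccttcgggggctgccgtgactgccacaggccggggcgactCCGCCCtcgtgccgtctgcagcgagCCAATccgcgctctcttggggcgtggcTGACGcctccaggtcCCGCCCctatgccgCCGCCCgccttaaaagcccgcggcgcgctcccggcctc
Rgs16: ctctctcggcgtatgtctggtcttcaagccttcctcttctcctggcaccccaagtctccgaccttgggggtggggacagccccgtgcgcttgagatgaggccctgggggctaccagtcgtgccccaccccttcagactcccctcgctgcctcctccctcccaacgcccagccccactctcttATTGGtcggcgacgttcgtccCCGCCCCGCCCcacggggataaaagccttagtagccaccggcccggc
Rgs10: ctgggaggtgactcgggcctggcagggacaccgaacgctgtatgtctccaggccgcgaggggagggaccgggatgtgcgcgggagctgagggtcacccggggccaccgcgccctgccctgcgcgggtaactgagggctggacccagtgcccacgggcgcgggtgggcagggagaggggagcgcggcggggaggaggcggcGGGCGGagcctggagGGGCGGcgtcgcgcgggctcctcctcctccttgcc
In the 300-base windows of the table, which run 50 bases past the start, Rgs2 held 2 CRE half-sites, starting 185 and 67 bases before the start, with 1 CCAAT box and 4 GC boxes. Rgs16 held no half-site, 1 CCAAT box and 2 GC boxes, and these GC boxes overlap. Rgs10 held 2 GC boxes and neither of the other motifs. Of all 32851 promoter windows, 20.8% held the half-site, 37.4% the CCAAT box and 35.7% the GC box. The full CRE, TGACGTCA, was in none of the 3 windows and in 1.79% of all windows. These matches describe letters and are not evidence of binding.

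Treg identity and library quality set the frame for the values. Foxp3 averaged from 88.6 TPM in blood to 238.5 TPM in lymph node, and all 7 Treg markers reached 10 TPM in every group. Between 14314 (liver) and 19797 (bone marrow) genes were above 0 per library, and the median coefficient of variation of genes at 100 TPM or more ran from 2.55% in lymph node to 10.5% in liver. Neutrophil markers were high in 2 groups, where 11 genes summed to 18112 ± 570 TPM in blood and 45791 ± 251 TPM in bone marrow (SD, n = 3), against 43.5 to 678 TPM elsewhere. The 8 monocyte and macrophage genes summed to 10616 TPM in blood and 3681 TPM in bone marrow, and 7 platelet genes to 2223 TPM in blood and at most 78.7 TPM elsewhere. In bulk RNA, fewer cells of a type and less RNA per cell cannot be told apart.

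Rgs1 had the highest mean of the 7 members in spleen, lymph node, bone marrow and liver, and in spleen its libraries overlapped those of Rgs10. Blood libraries had 195.8, 157.9 and 164.3 TPM, and spleen libraries 260.0, 353.3 and 322.1 TPM. Lymph node libraries stood at 469.0, 493.3 and 481.5 TPM, and bone marrow libraries at 684.5, 667.4 and 659.6 TPM. Lung libraries had 961.4, 785.7 and 869.2 TPM, and liver libraries 1073.2, 1106.6 and 1051.8 TPM. The order blood, spleen, lymph node, bone marrow, lung, liver thus had no overlap between any neighbouring groups. The liver mean of 1077 ± 27.6 TPM was 6.24-fold the blood mean of 172.7 ± 20.3 TPM (SD, n = 3 each). By level, Rgs1 ranked 141 of all IDs in liver and 785 in blood.

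The order of Rgs1 depends in part on the scale. Over 19 general T cell genes, blood libraries stood at 0.609 of their level over all libraries and lymph node libraries at 1.40. After rescaling to these genes, Rgs1 was lowest in spleen (276 rescaled TPM) and highest in lung (952), with lung and liver overlapping, and blood (284) overlapping spleen. The ratio of Rgs1 to Foxp3 within a library, which no scaling can change, averaged 1.95 ± 0.294 in blood, 2.22 ± 0.217 in spleen and 2.02 ± 0.0649 in lymph node, and these 3 groups overlapped. It was higher in lung (3.80 ± 0.509), bone marrow (4.55 ± 0.0956) and liver (7.28 ± 0.705), none of which overlapped those 3.

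Rgs2 divided the sites into a low and a high set. Lymph node libraries had 28.1, 27.9 and 24.3 TPM, and spleen libraries 54.6, 50.2 and 36.7 TPM. Bone marrow libraries had 345.2, 332.9 and 339.1 TPM, and blood libraries 395.0, 363.7 and 379.6 TPM. Liver libraries had 564.6, 421.4 and 472.9 TPM, and lung libraries 1067.9, 864.6 and 853.4 TPM. No neighbouring groups overlapped, and the step from spleen to bone marrow was 7.19-fold, while the whole range, from lymph node (26.8 ± 2.13) to lung (928.6 ± 121), was 34.7-fold. After rescaling to T cell genes, lymph node remained lowest and lung highest, with blood second (623), and the range was 53.2-fold. In the low Rgs2 set the neutrophil sum was 43.5 TPM (lymph node) and 587 TPM (spleen). In the high set it was 45791 TPM (bone marrow), 18112 TPM (blood), 235 TPM (liver) and 678 TPM (lung). The monocyte and macrophage sum, in TPM and in the same order, was 356 and 571, then 3681, 10616, 244 and 1433. The part of neutrophils, monocytes and macrophages in the Rgs2 level was not tested at any site.

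Rgs16 had the widest range of all. Blood libraries had 1.34, 1.59 and 1.76 TPM, against 179.7, 158.4 and 169.5 TPM in liver. Spleen (22.2 ± 2.92 TPM), lymph node (22.5 ± 1.01 TPM) and bone marrow (23.8 ± 0.886 TPM) could not be ordered, since neighbours overlapped. Lung lay above them at 39.3 ± 2.66 TPM, without overlap, so that the liver mean was 108-fold the blood mean. Per Foxp3, the blood ratio was 0.0176 ± 0.00174, the liver ratio 1.14 ± 0.111, and the other 4 sites lay between 0.0942 and 0.171. Rescaling to T cell genes left blood lowest and liver highest, with a range of 57.2-fold.

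Immediate early and dissociation genes, such as Fos and Hspa1a, whose RNA can rise while a tissue is being prepared, also differed between sites. The sum of 20 such genes was 18649 ± 827 TPM in liver, 11986 ± 141 in bone marrow, 7666 ± 321 in lung, 6275 ± 156 in blood, 3733 ± 52.6 in lymph node and 3642 ± 78.2 in spleen (SD, n = 3). The 5 erythroid marker genes, 4 of them globins, summed to 11468 ± 520 TPM in liver and 6397 in bone marrow, against 74.4 in lymph node, 1466 in lung, 1926 in spleen and 2928 in blood. In the TPM as deposited, Rgs1 and Rgs16 were both highest in liver and lowest in blood. The part of these genes in the RGS levels was not tested.

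**Figure D1:**
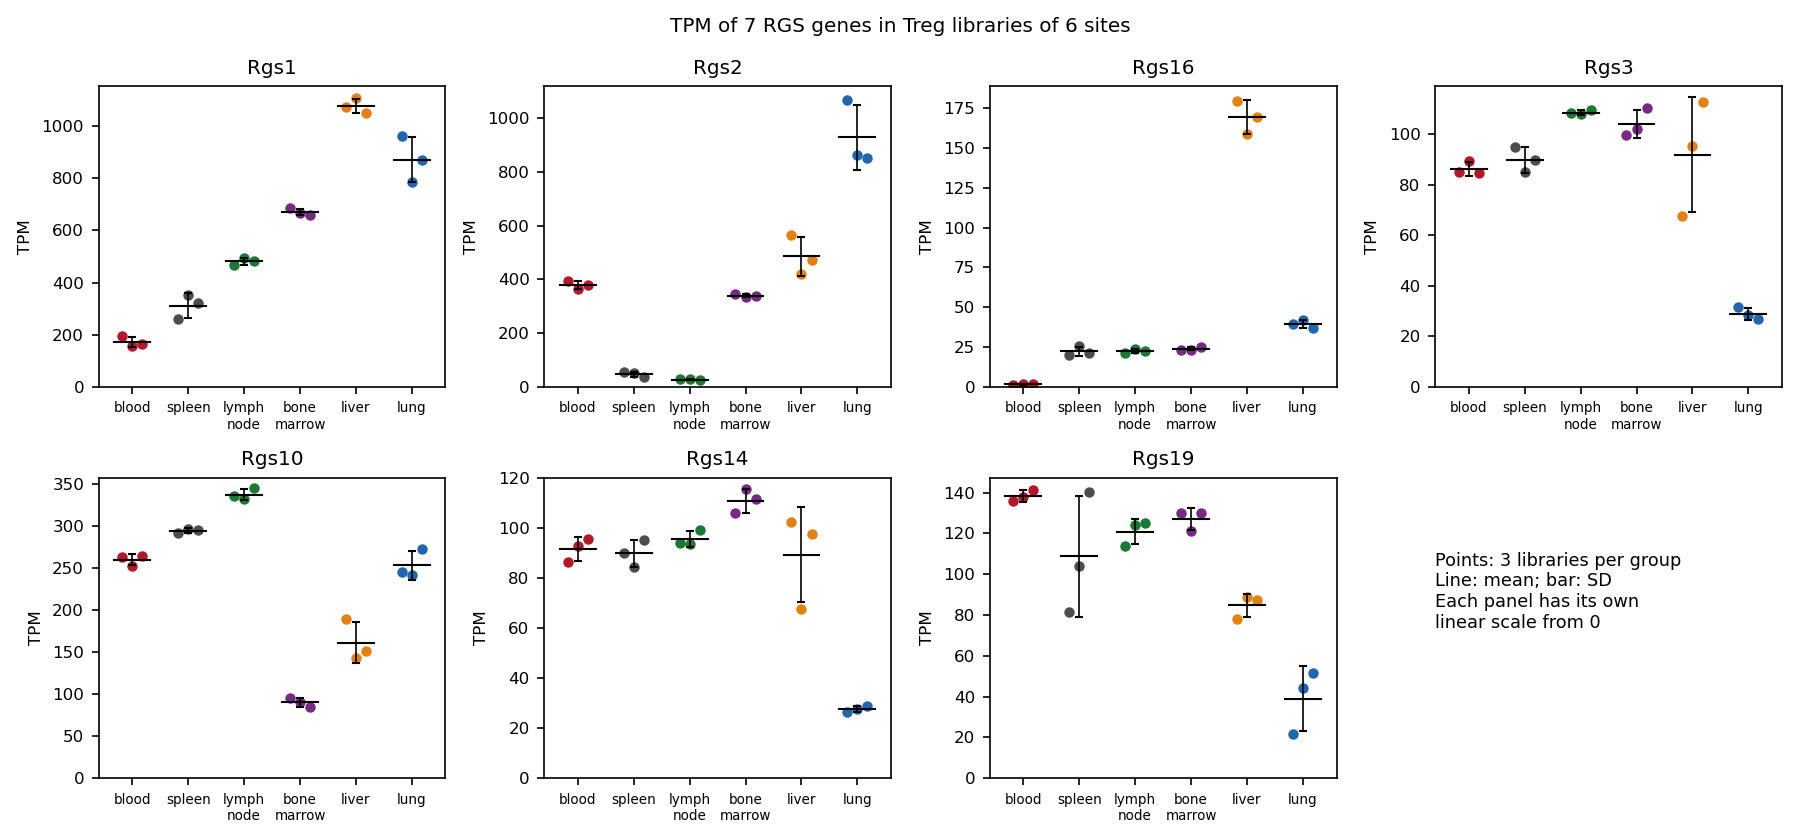
TPM (vertical axis, linear from 0, own scale per panel) of the 7 members at 6 sites; points are the 3 libraries of a group, lines the mean and bars the SD. Rgs1 climbs from blood (172.7) to liver (1077), Rgs2 is near 0 on its axis in spleen and lymph node, and Rgs3, Rgs14 and Rgs19 are lowest in lung.

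Rgs3, Rgs14 and Rgs19 formed a second pattern, in which lung was low and, in the TPM as deposited, the other sites were close together. Rgs3, which acts on Gi and Gq, had 31.5, 28.3 and 26.7 TPM in the lung libraries and means of 86.2 to 108.5 TPM at the other 5 sites. Rgs14 had 26.6, 27.6 and 29.1 TPM in lung and means of 89.4 to 111.0 TPM elsewhere. Rgs19, also called GAIP, had 21.6, 44.2 and 51.6 TPM in lung and means of 84.8 to 138.4 TPM elsewhere. For each of the 3 genes every lung library was below every other library. Among the remaining 5 sites neighbours mostly overlapped: 4 of the 5 neighbouring pairs of groups for Rgs3 and 3 of 5 for Rgs14 and Rgs19, counting the step to lung. Liver was the most scattered for Rgs3, with 67.7, 95.1 and 112.8 TPM. For Rgs19 spleen had the largest SD, with 81.5, 103.9 and 140.5 TPM. Lung had the largest coefficient of variation for Rgs19, at 40.0% against 27.4% in spleen.

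The GC content of the transcripts went with these lung levels in part. Rgs3, Rgs14 and Rgs19 have 57.1% to 57.2% GC, which puts them in the highest of 5 equal bins of genes (55.7% to 73.5% GC). The median of that bin in lung was -0.31 relative to each gene's mean over sites on the log2 scale. The same measure was -1.41 for Rgs3, -1.45 for Rgs14 and -1.27 for Rgs19. After a correction for GC content, blood still exceeded lung by 1.38 for Rgs3, 1.52 for Rgs14 and 1.72 for Rgs19 on the log2 scale, against 1.55, 1.69 and 1.89 before it. Rescaling to T cell genes left lung lowest for all 3, but set the other 5 sites farther apart, with blood highest. They then ran from 77.4 to 141 rescaled TPM for Rgs3, 68.2 to 150 for Rgs14 and 73.6 to 227 for Rgs19.

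Rgs10, a small RGS protein that consists of little more than the RGS domain, followed neither pattern. Bone marrow libraries had 96.1, 90.3 and 85.1 TPM, and liver libraries 189.3, 143.5 and 151.7 TPM. Lung (253.7 ± 17.2 TPM) and blood (260.3 ± 6.49 TPM) overlapped, and spleen (295.0 ± 2.78 TPM) and lymph node (337.7 ± 6.57 TPM) stood above them in that order. That order of the upper sites depended on the scale. After rescaling to T cell genes, blood was highest (427 rescaled TPM), followed by lung (276), spleen (261) and lymph node (241). With median of ratios scaling, spleen and lymph node overlapped at 300 each. Bone marrow stayed lowest and liver next under both. Bone marrow and liver were thus low in Rgs10 and high in Rgs1. Within libraries, the ratio of Rgs1 to Rgs10 was 0.663 ± 0.0684 in blood, 1.06 ± 0.152 in spleen and 1.43 ± 0.0507 in lymph node, against 3.45 ± 0.407 in lung, 6.77 ± 1.03 in liver and 7.42 ± 0.313 in bone marrow.

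The mix of the 7 members therefore changed with the site. Their summed level was lowest in spleen (964 ± 62.0 TPM), followed by blood (1130 ± 33.6), lymph node (1193 ± 19.8) and bone marrow (1466 ± 17.0), and was 2160 ± 88.1 in liver and 2190 ± 185 in lung, which overlapped. Rgs1 and Rgs10 made up most of the sum in lymph node, with 40.3% and 28.3%. In lung Rgs2 (42.3%) and Rgs1 (39.8%) did, while Rgs3, Rgs14 and Rgs19 held 1.32%, 1.28% and 1.83%. Blood was the only site where all 3 libraries had more Rgs2 than Rgs1, at a ratio of Rgs1 to Rgs2 of 0.454 ± 0.0360. That ratio was 0.942 ± 0.0660 in lung, where 2 of 3 libraries had more Rgs2, 1.98 ± 0.0301 in bone marrow, 2.25 ± 0.363 in liver, 6.86 ± 2.02 in spleen and 18.1 ± 1.58 in lymph node.

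**Figure D2:**
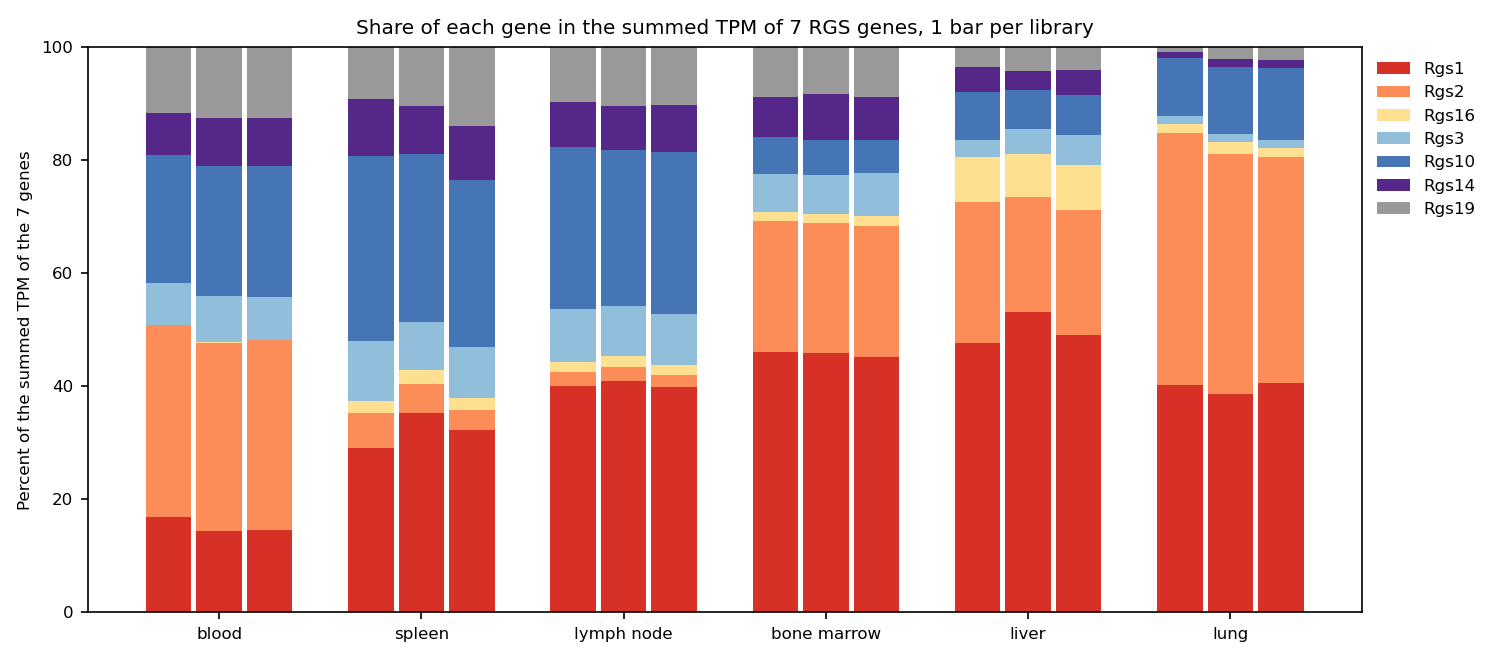
Share of each member in the summed TPM of the 7 (vertical axis, percent), 1 stacked bar per library, 3 per site. Rgs2 is a thin band in spleen (4.94% on average) and lymph node (2.25%) and a broad one in blood (33.6%) and lung (42.3%).

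Blood was set against each organ because the study asks how circulating Treg cells compare with those in tissues. Differences below are on the log2(TPM + 1) scale, blood minus organ, with the standard error of the limma fit over all 18 libraries, and the 5 comparisons share the blood libraries. Rgs1 differed by -0.84 against spleen, -1.48 against lymph node, -1.96 against bone marrow, -2.64 against liver and -2.33 against lung, each with an SE of 0.10. For Rgs16 the values were -3.17, -3.20, -3.28, -6.05 and -3.98 in the same order, each with an SE of 0.11. Both genes were thus below every organ in blood, but Rgs1 against spleen became 0.04 after rescaling to T cell genes, while Rgs16 stayed at -2.26 or lower. Rgs2 was higher in blood than in spleen (3.00) and lymph node (3.78), close to bone marrow (0.16) and lower than in liver (-0.35) and lung (-1.28), with the bone marrow value at 0.77 and the liver value at 0.57 after rescaling.

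Rgs10 exceeded bone marrow by 1.52 and liver by 0.70 in blood, each with an SE of 0.08. Against spleen and lymph node its values were -0.18 and -0.37, which turned to 0.71 and 0.82 after rescaling to T cell genes. Blood exceeded lung by 1.55 for Rgs3, 1.69 (SE 0.12) for Rgs14 and 1.89 (SE 0.23) for Rgs19. Against the other 4 organs, Rgs3 lay between -0.33 and -0.06, Rgs14 between -0.27 and 0.06, and Rgs19 between 0.12 and 0.70. The signs of most of these small values of Rgs3 and Rgs14 turned with the scaling.

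**Figure D3:**
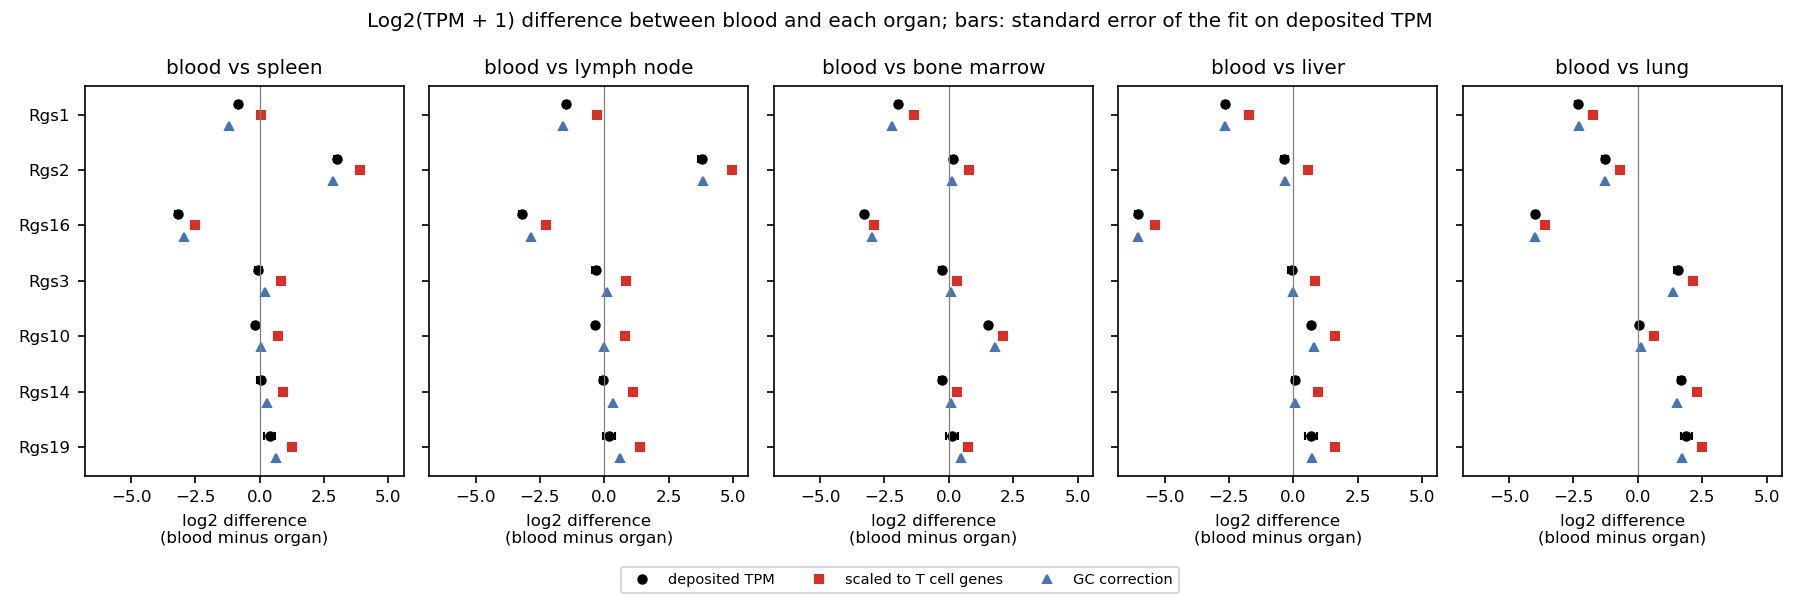
Log2(TPM + 1) difference, blood minus organ (horizontal axis), for the 7 members against 5 organs; circles are deposited TPM with bars for the standard error, squares are values rescaled to T cell genes, and triangles are values corrected for GC content. Rescaling moves all members to the right, and Rgs16 stays left of 0 in all 5 panels.

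Libraries of blood and organ did not overlap for 4 of the 7 members against spleen, 6 against lymph node, 7 against bone marrow, 5 against liver and 6 against lung. The share of all 16694 genes tested with no overlap was 53.3% against spleen, 64.5% against lymph node, 58.6% against bone marrow, 45.5% against liver and 52.0% against lung. The members were chosen on these values, so nothing is read from their counts.

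Liver and lung were also set against spleen and lymph node, a comparison that uses no blood library. Rgs2 was higher in liver and lung by 4.20, Rgs16 by 1.83 and Rgs1 by 1.32 on the log2 scale. Rgs10 (-0.64), Rgs14 (-0.89), Rgs3 (-0.94) and Rgs19 (-1.01) were lower. For Rgs3 and Rgs14 the low site was lung, at 28.8 and 27.8 TPM. Their liver means, 91.9 and 89.4 TPM, lay beside spleen means of 89.8 and 89.9 TPM, and those libraries overlapped. No overlap was seen for 4 members, Rgs1, Rgs2, Rgs10 and Rgs16, and for 12.8% of all genes tested. The members were chosen with these levels known, so nothing is read from their count. All 7 signs held under the T cell scaling and under the GC correction. For Rgs10 the sign under the T cell scaling rested on liver (139 rescaled TPM). Lung (276) was then not below spleen (261) or lymph node (241).

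Patterns over the 18 libraries, which are grouped by site, are described by Pearson's r of log2(TPM + 1), without a test. Rgs1 went with Rgs16 (r = 0.90). Rgs3 went with Rgs14 (0.94) and Rgs19 (0.84), and Rgs14 with Rgs19 (0.88). Rgs1 and Rgs2, the members closest on the chromosome, had r = 0.36.

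Among 9604 genes that reached 10 TPM at a site, the pattern of Rgs1 was most like those of Sema6d (0.971), Cxcr6 (0.967) and Ccr4 (0.960). Cxcr6, a chemokine receptor of tissue T cells, averaged 10.5 TPM in blood and 115.4 in liver, and Ccr4, a receptor for skin and lung homing ligands, 10.6 in blood and 96.5 in lung. The pattern of Rgs2 was nearest to Plk2 (0.981), Tent5a (0.976) and Il18rap (0.974), and that of Rgs16 to H2-Q5 (0.971), Rilpl2 (0.961) and Spry1 (0.945). Zbtb7b, which encodes the CD4 lineage factor ThPOK, led for both Rgs3 (0.972) and Rgs14 (0.987), and averaged 11.3 TPM in lung and 91.9 to 134.2 TPM elsewhere. Next for Rgs3 came Sipa1 (0.971) and Taok2 (0.969), and for Rgs14 Ppp1r18 (0.962) and Ebi3 (0.961), a subunit of the Treg cytokine IL-35. Rgs19 was nearest to Zfp276 (0.944), Rgl2 (0.937) and Tbc1d2b (0.928), and Rgs10, with the weakest likeness, to Hdgfl3 (0.911), Itm2a (0.890) and Bicdl1 (0.889). After rescaling to T cell genes, 8 of these 21 pairings of a member with a gene, Zbtb7b being in 2, remained.

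The rest of the family was mostly low. Of 21 numbered Rgs genes in the tables, the 7 members held 97.2% to 98.5% of the summed TPM at 5 sites and 87.0 ± 0.533% in blood. Of the other 14, 8 stayed below 1 TPM in every group and 4 reached 10 TPM. In the run on chromosome 1, Rgs13 had 3.14 TPM in 1 liver library and at most 0.690 TPM in any other, and Rgs21 was listed at 0, although they flank Rgs1.

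Rgs18, the last gene of that run and known from platelets and their precursors, had 171.7, 154.8 and 153.2 TPM in the blood libraries. Its mean was 18.7 ± 1.02 TPM in bone marrow and at most 1.45 TPM elsewhere. It was higher in blood than in lymph node by 7.29 (SE 0.32, limma adjusted p = 4.59e-11) and than in bone marrow by 3.03 (SE 0.32, limma adjusted p = 2.50e-06). The platelet marker sum was also highest in blood, at 2223 ± 18.6 TPM, with 78.7 ± 6.38 TPM in bone marrow and 3.20 to 11.1 TPM elsewhere. So was the monocyte and macrophage sum, with 10616 TPM in blood, 3681 TPM in bone marrow and 244 to 1433 TPM elsewhere. The ratio of bone marrow to blood was 0.117 for Rgs18 and 0.0354 for the platelet sum. It was 0.347 for the monocyte and macrophage sum and 2.53 for the neutrophil sum. The part of these cells in the Rgs18 level was not tested. Rgs9, another RGS gene, was the reverse, with 0.380 ± 0.147 TPM in blood and 14.7 ± 1.46 TPM in lung. It was lower in blood than at all 5 other sites, from -1.80 (bone marrow, SE 0.44, limma adjusted p = 0.00512) to -3.51 (lung, SE 0.44, limma adjusted p = 7.85e-06).

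**Figure D4:**
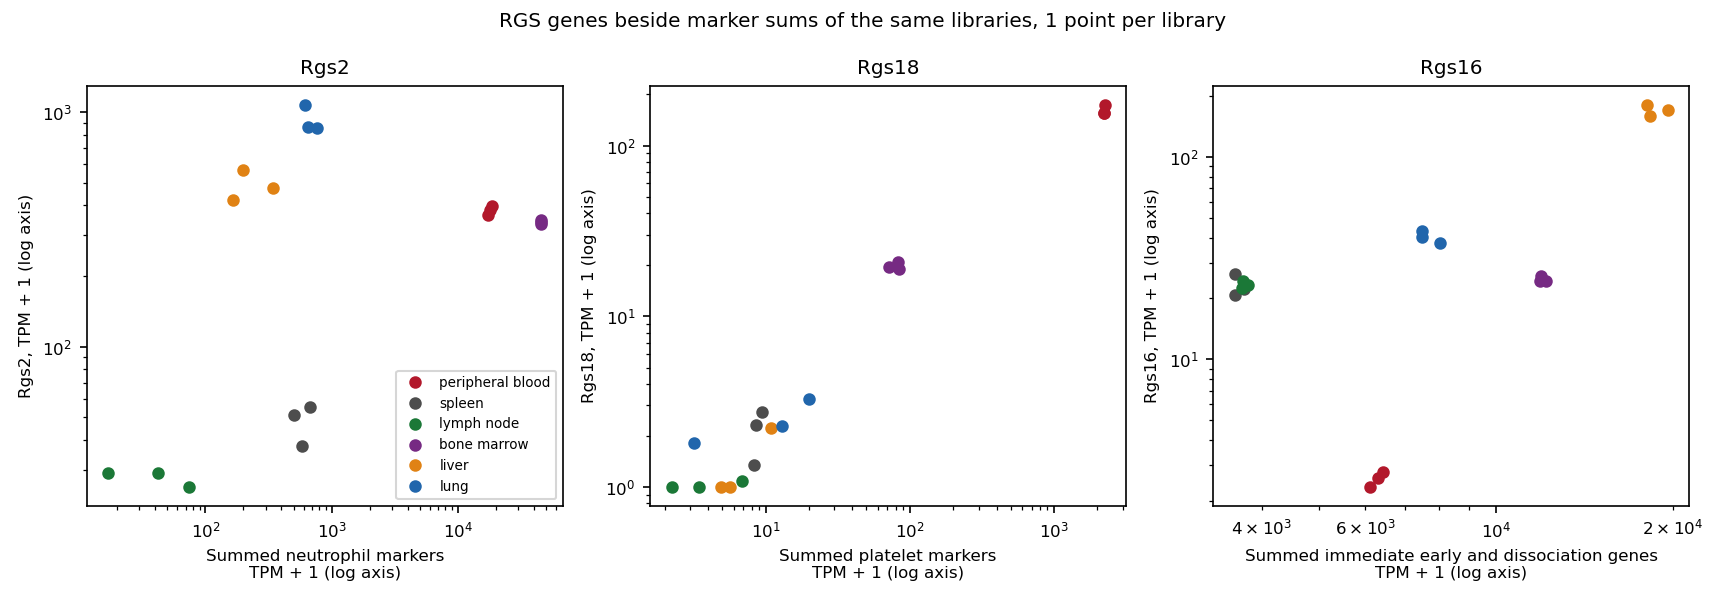
Levels of Rgs2, Rgs18 and Rgs16 (vertical log axes, TPM + 1) against the summed TPM + 1 of neutrophil markers, platelet markers, and immediate early and dissociation genes (horizontal log axes), 1 point per library, coloured by site. Liver and lung have high Rgs2 at a neutrophil sum of 235 and 678 TPM, and so have blood and bone marrow at 18112 and 45791 TPM. Rgs18 is highest in the blood libraries with a platelet sum of 2223 TPM, and blood lies at the bottom for Rgs16.

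The other genes with an RGS domain, 29 in all, include the receptor kinases (Grk), the Axin scaffolds and sorting nexins. Of these, 20 passed the filter. Against spleen 8 were called (6 higher in blood, 2 lower), where 35.4% of all genes were called, and against lymph node 9 (4 and 5; all genes 37.4%). Against bone marrow 6 were called (3 and 3; all genes 31.8%), against liver 10 (4 and 6; all genes 39.4%) and against lung 12 (8 and 4; all genes 43.7%). For liver and lung against spleen and lymph node 6 were called (2 and 4; all genes 45.6%). By direction, the shares of all genes called higher and lower in blood were 20.1% and 15.3% (spleen), 16.4% and 21.0% (lymph node), 13% and 18.8% (bone marrow), 23.3% and 16.1% (liver) and 26.4% and 17.3% (lung), and 16.3% and 29.3% for liver and lung. The called share of the list was 40.0%, 45.0%, 30.0%, 50.0%, 60.0% and 30.0% in the same order, with medians from -0.23 (liver) to 0.33 (lung), beside 0.07 and 0.12 for all genes.

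Grk3, a kinase that marks active receptors for arrestin, had 34.1 ± 2.78 TPM in blood and at most 4.32 TPM on average elsewhere. It was higher in blood than at every other site, from 2.72 (bone marrow, SE 0.33, limma adjusted p = 9.97e-06) to 4.84 (liver, SE 0.33, limma adjusted p = 7.57e-09). Grk5, its relative, had 18.6 ± 1.23 TPM in blood and at most 4.30 TPM elsewhere, with differences of 1.88 to 2.74. Both were called in all 5 comparisons with blood, under the T cell scaling and the GC correction too. Grk2, a widely expressed receptor kinase, was lower in lung instead, with 105.9, 147.9 and 214.7 TPM there and 339.8 to 476.5 TPM on average elsewhere (blood minus lung 1.65, SE 0.21, limma adjusted p = 9.61e-06).

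Axin2, a feedback target of Wnt signalling, was lower in blood (15.3 ± 2.26 TPM) than in bone marrow (49.6 ± 0.835), liver (39.9 ± 9.36) and lung (41.0 ± 7.65), by -1.64, -1.31 and -1.35 (SE 0.17 each, limma adjusted p at most 1.08e-05). Snx13, a sorting nexin with an RGS domain for Gs alpha, reached 102.6 ± 14.7 TPM in lung against 22.7 ± 1.65 in blood (-2.12, SE 0.15, limma adjusted p = 1.45e-08). Arhgef1, which acts downstream of Gna13, was lower in lung (481.2 ± 9.38 TPM) than in blood (858.4 ± 40.7 TPM), a difference of 0.83 (SE 0.04, limma adjusted p = 8.55e-11).

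The alpha subunits are the direct targets of RGS proteins. Gnai2, the main Gi alpha of lymphocytes, averaged between 494.9 TPM in lung and 797.4 TPM in blood. Gna13 rose from 67.7 ± 0.822 TPM in blood to 181.5 ± 9.0 in liver and 390.3 ± 21.1 in lung, differences of -1.41 and -2.51 (SE 0.07 each, limma adjusted p = 1.29e-10 and 1.51e-13). Gna15, a Gq-class subunit of blood cells, was lower in blood (15.6 ± 2.35 TPM) than in bone marrow (59.9 ± 3.55), liver (72.2 ± 14.4) and lung (77.5 ± 11.4), by -1.88, -2.13 and -2.24 (SE 0.17 each, limma adjusted p at most 5.15e-07). Gna13, Gna15 and Snx13 were also higher in liver and lung than in spleen and lymph node, by 2.00, 1.93 and 2.00 (limma adjusted p = 2.14e-14, 3.57e-09 and 5.35e-10). Of 11 G alpha genes tested, 7 were called against spleen, 7 against lymph node, 4 against bone marrow, 6 against liver, 6 against lung and 8 between liver with lung and spleen with lymph node. These are 63.6%, 63.6%, 36.4%, 54.5%, 54.5% and 72.7% of the list, beside 35.4%, 37.4%, 31.8%, 39.4%, 43.7% and 45.6% of all genes.

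**Figure D5:**
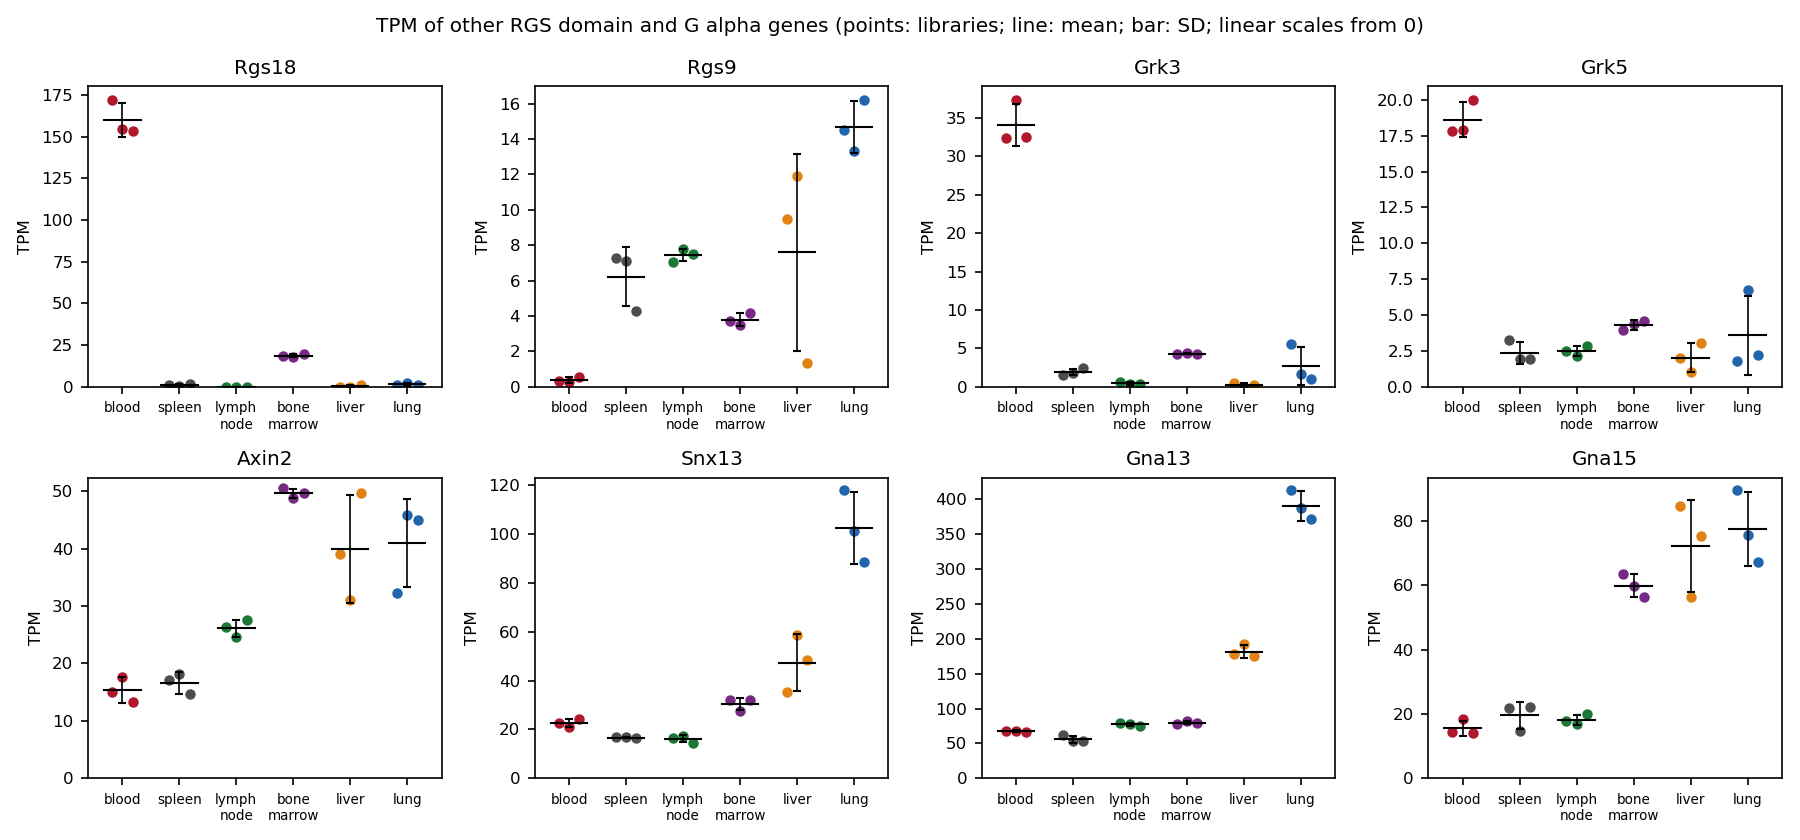
TPM (vertical axes, linear from 0) of 6 other RGS domain genes and 2 G alpha genes at the 6 sites; points are libraries, lines means and bars the SD. Rgs18, Grk3 and Grk5 are highest in blood, Rgs9 is lowest there, and Snx13 and Gna13 are highest in lung (102.6 and 390.3 TPM).

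Gi-coupled receptors, chemokine receptors among them, activate the G proteins on which most members act. Of 36 such receptors tested, 72.2% to 86.1% were called in the comparisons with blood. The counts were 27 against spleen (20 higher in blood, 7 lower; all genes 35.4%), 26 against lymph node (18 and 8; 37.4%), 26 against bone marrow (15 and 11; 31.8%), 29 against liver (17 and 12; 39.4%) and 31 against lung (19 and 12; 43.7%). Those higher in blood include Cxcr2, which belongs to the neutrophil marker list and rose by 6.31 against spleen (SE 0.34, limma adjusted p = 5.79e-10). P2ry12 rose by 5.73 against spleen (SE 0.34) and C5ar1 by 6.55 against lymph node (SE 0.27). The part of neutrophil, monocyte and platelet RNA of the blood libraries in these calls, and in those of the other lists, was not tested. Ccr8, a receptor of tissue Treg cells, was lower in blood (0.507 ± 0.297 TPM) than at all 5 other sites, from -3.78 (bone marrow) to -5.94 (liver), with a limma adjusted p of at most 6.79e-11. Cxcr4, the receptor for CXCL12, had 90.8 ± 6.97 TPM in spleen and 54.7 ± 2.53 in lymph node, against 349.4 to 619.8 TPM at the other sites, and was higher in liver and lung than in spleen and lymph node by 2.82 (SE 0.05, limma adjusted p = 2.61e-16). Spleen and lymph node were also the sites of lowest Rgs2.

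Over all 6 lists of the pathway, which also hold G beta and gamma subunits, effectors and other modulators, 105 of 133 genes were tested and 90 differed among the 6 sites (limma F test, 85.7%, beside 68.0% of all genes). Blood had 49 higher and 15 lower calls against spleen, 42 and 24 against lymph node, 31 and 26 against bone marrow, 45 and 28 against liver, and 57 and 24 against lung. Rescaling to T cell genes, which moved the median of all genes to between 0.39 and 0.85, turned these splits into 79 and 7, 81 and 8, 56 and 13, 74 and 12, and 67 and 16. Calls among all 17018 genes tested on that scale turned the same way. They were 9275 higher and 461 lower against spleen, 10158 and 268 against lymph node, and 6152 and 1159 against bone marrow. Against liver they were 10453 and 784, and against lung 8509 and 1324. Between liver with lung and spleen with lymph node the split was 34 and 28 (all genes 2719 and 4896). After that rescaling it was 40 and 17 (all genes 4076 and 2540). The GC correction gave 49 and 14 against lymph node (all genes 3471 and 1690) and 40 and 20 against bone marrow (2769 and 1861). For liver with lung it gave 39 and 18 (3367 and 3315).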

How the data were processed

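Each library has 1 deposited table, in which the authors gave TPM for 55487 Ensembl gene IDs. The submitters' processing notes name STAR, RSEM and mm10, and the annotation and strand setting are not given in the sources used here. Per the labels' protocols, RNA was cleaned on a column and made into directional libraries. TPM keeps no read depth, so no counting intervals are given, and abundant RNA of any kind lowers every other value. GENCODE M21 names matched 55141 IDs.

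Values were compared with limma 3.58.1 in R 4.3.3 on log2(TPM + 1), which understates changes of low genes, with a mean per group, trend and robust variances, and Benjamini-Hochberg adjustment over the 16694 genes whose mean reached 1 TPM in a group. An adjusted p under 0.05 was the threshold for a call. On simulated data for blood against spleen (16694 genes), 69% of changes of 1 and 96% of changes of 2 on the log2 scale were recovered, and 0.042% of unchanged genes were called. The changed genes, 100 of each size, were drawn from the more highly expressed genes only. Recovery of low genes was therefore not measured. The simulated noise was independent between genes, and far fewer genes changed than were called in the data.

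The members and all gene lists were chosen with earlier results of these data known. Named were all members, other RGS domain and G alpha genes reaching 10 TPM, in each other list the 2 largest called rises and falls per comparison, the 3 genes most like each member, and markers standing beside a member. Of these, only part is printed. Markers of plasma, B, cytotoxic, erythroid, liver, lung epithelial and stromal cells were measured too: the lung epithelial sum was 249 TPM in lung and at most 0.540 elsewhere, the erythroid sum ran from 74.4 (lymph node) to 11468 TPM (liver), the hepatocyte sum was at most 12.2, the B cell sum 73.2 to 543, the plasma cell sum 82.9 to 228, the cytotoxic sum 19.9 to 493 and the stromal sum 81.7 to 126. Alternatives covered 3 scalings, the pseudocount, filters, library weights, prior variance, a replicate block, each library left out and a GC correction in 20 bins, which was chosen after seeing the data.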

Additional observations from a re-analysis of the deposited data

How the results depend on the processing

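The highest and lowest site of each member were kept in 14 of 14 cases under the other 2 scalings and with any one library left out (14 to 14), and in 9 after scaling to T cell genes. That scaling kept 8 of the 21 pairings of a member with a gene named for likeness. Counts of called pathway genes stayed within 1.5 times the reported count under every alternative run. With one library left out they ranged from 56 to 66 (spleen), 59 to 72 (lymph node), 51 to 61 (bone marrow), 67 to 74 (liver), 74 to 85 (lung), 56 to 66 (liver and lung against spleen and lymph node) and 87 to 93 (F test), with 14 to 20 of those pairings kept. Member signs, blood minus organ on the log2 scale, turned as follows. T cell scaling gave Rgs1 0.04 (spleen), Rgs2 0.57 (liver), Rgs3 0.83 (spleen), 0.86 (lymph node), 0.33 (bone marrow) and 0.85 (liver), Rgs10 0.71 (spleen) and 0.82 (lymph node), and Rgs14 1.13 (lymph node) and 0.33 (bone marrow). GC correction gave Rgs3 0.19 (spleen), 0.09 (lymph node) and 0.10 (bone marrow), Rgs10 0.03 (spleen) and 0.00 (lymph node), and Rgs14 0.35 (lymph node) and 0.09 (bone marrow). Removing abundant RNA gave Rgs10 -0.03 (lung) and Rgs14 -0.13 (spleen) and -0.02 (liver), and median of ratios gave Rgs14 0.18 (lymph node). With one library left out, Rgs3 against liver ran from -0.26 to 0.10 (positive without liver replicate 3), Rgs14 against spleen from -0.02 (without spleen replicate 2) to 0.07, with -0.00 without blood replicate 3, and Rgs14 against liver from -0.13 (without liver replicate 2) to 0.17. The cause of these turns was not tested.

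With the replicate number as a block, the counts were 59 (spleen), 64 (lymph node), 57 (bone marrow), 71 (liver), 81 (lung) and 62 (liver and lung against spleen and lymph node), and no member sign turned. Same-numbered libraries of different sites correlated by -0.095 to 0.24 over 8216 genes (median 0.033, 6 of 45 pairs over 0.1), so the numbers are not shown to pair the libraries. Liver and lung libraries held fewer genes above 0, which limits low genes there.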
